A study of Mus musculus with 14 samples.

Results

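The genes described are the enzymes that conjugate glutathione or remove peroxides and superoxide, measured in skeletal muscle and brain of aged mice on 3 diets. They were taken by name from the array's probe annotation, as all genes of the Gsta, Gstk, Gstm, Gsto, Gstp, Gstt, Gstz, Mgst, Gpx and Prdx families together with superoxide dismutases, catalase and both thioredoxins. The rule used no measured value, although the families themselves were picked with earlier results of these data known. It gave 61 of 25697 probes and 42 of the 16593 genes that the annotation names: 21 cytosolic or mitochondrial glutathione transferases, 3 microsomal transferases, 8 glutathione peroxidases, 4 peroxiredoxins, 3 superoxide dismutases with catalase, and 2 thioredoxins. Prdx5, Prdx6 and Gstm7 were not among the names matched and were not analysed here. Male C57BL/6 mice, 13 months old when the feeding began, received control food (C), calorie restriction at 70% of the control food (CR), or control food with 0.066% β-lapachone (βL), a quinone that the enzyme NQO1 reduces. Muscle had 2 C, 3 CR and 3 βL arrays, and brain had 2 arrays of each diet. The sources used here do not name the muscle, and they do not state whether each array of a group was a different animal, so a p-value covers the variation among these arrays alone, and that variation may be technical.

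Glutathione transferases join the tripeptide glutathione to reactive carbon compounds, and several also reduce lipid peroxides. Most glutathione peroxidases spend glutathione to reduce peroxides, whereas peroxiredoxins mainly draw electrons from thioredoxin. Superoxide dismutases turn superoxide into hydrogen peroxide, which catalase splits in peroxisomes. Muscle and brain both use much oxygen, and many of these genes are known targets of the transcription factor Nrf2, which binds antioxidant response elements in promoters.

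Each array reported a probe's brightness, which was corrected for background, normalized and put on a log2 scale, so 1 unit is a 2-fold difference. A level is comparable between arrays for 1 probe, not between probes. A probe counted as above background at a detection p under 0.05, which held for 11123 to 11786 probes per muscle array and 13844 to 14230 per brain array. After a filter on dim probes 34 members of 8898 genes were tested in muscle, 34 of 9956 in brain and 36 of 10827 over both tissues. Gpx5, Gsta1, Gsta2, Gstm3, Gstp3 and Gstt4 failed the filter in both tissues, Gpx6 and Gsto2 failed it in muscle, and Gstp2 and Mgst2 failed it in brain. In bulk RNA, fewer cells of a type and less RNA per cell cannot be told apart.

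The tissues matched their labels by most markers. All 7 fast-twitch fibre markers were above background on every muscle array and 0 to 2 of them on brain arrays, and all 5 oligodendrocyte and all 6 astrocyte markers were above background on every brain array, with 5 of 7 neuron markers (Snap25 and Nefl were not). On muscle arrays 3 oligodendrocyte, 4 or 5 astrocyte and 1 neuron marker were also above background. The summed levels there were lower, 989 to 2949 against 43025 to 45324 in brain for oligodendrocytes and 2206 to 5141 against 37522 to 41622 for astrocytes. Muscle C replicate 1 stood apart. Its mean correlation with the other muscle arrays was 0.971, slightly under the 0.977 to 0.984 of the other 7. It had 8 of 12 hepatocyte markers above background (Alb itself was not). They summed to 6211 against 112 to 175 on the other 7 muscle arrays, and its slow-twitch markers summed to 2420 against 30512 to 153798. Each muscle comparison with C therefore rests on this array and 1 other, and for the members set against C the values without it are given as well.

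The promoters of 4 transferases are shown because they include a pair of neighbouring genes that differed in tissue pattern and a pair from 1 family that differed in direction. Each is the 250 bases before the transcription start in RefSeq (GRCm38.p6), 5′ to 3′ on the gene's strand. Gstp1 lay at chr19:4037913-4038162 (minus strand), Gstp2 at chr19:4042222-4042471 (minus), Gstm2 at chr3:107986421-107986670 (minus) and Gstm5 at chr3:107895604-107895853 (plus). Capitals mark TGACNNNGC, the core of the antioxidant response element, or its variant TGAGNNNGC, on either strand.
Gstp1: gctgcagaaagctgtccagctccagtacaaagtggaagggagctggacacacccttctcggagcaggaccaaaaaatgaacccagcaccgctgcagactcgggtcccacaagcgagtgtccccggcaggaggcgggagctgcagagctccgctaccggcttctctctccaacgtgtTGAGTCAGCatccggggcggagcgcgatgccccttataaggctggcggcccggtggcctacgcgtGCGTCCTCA
Gstp2: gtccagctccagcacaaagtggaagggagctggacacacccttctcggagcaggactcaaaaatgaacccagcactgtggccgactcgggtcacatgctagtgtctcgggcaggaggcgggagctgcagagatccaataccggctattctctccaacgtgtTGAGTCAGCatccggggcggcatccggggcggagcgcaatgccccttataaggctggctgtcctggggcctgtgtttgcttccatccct
Gstm2: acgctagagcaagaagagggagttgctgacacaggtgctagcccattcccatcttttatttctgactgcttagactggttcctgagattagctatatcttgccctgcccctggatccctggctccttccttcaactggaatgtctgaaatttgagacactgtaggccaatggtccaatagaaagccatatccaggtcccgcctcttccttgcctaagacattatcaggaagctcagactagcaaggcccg
Gstm5: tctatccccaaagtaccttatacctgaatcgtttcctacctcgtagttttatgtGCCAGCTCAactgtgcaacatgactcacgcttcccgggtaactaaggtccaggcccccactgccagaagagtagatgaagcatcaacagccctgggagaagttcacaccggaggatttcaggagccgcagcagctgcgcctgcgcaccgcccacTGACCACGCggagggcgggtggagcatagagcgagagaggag
The Gstp1 and Gstp2 windows shared 208 of 250 bases (83.2%), against 56.8% to 60.4% for the other pairs of these 4, and both held TGAGTCAGC. Gstm2 held neither motif and Gstm5 held 1 of each. TGACNNNGC lay in the windows of 5 of 39 members with a promoter (Gsta3, Gstm5, Mgst1, Prdx1 and Sod1), a share of 12.8% beside 11% of the 13336 array genes with one. TGAGNNNGC, which was added after the sequences had been seen and overlaps the binding motif of AP-1, lay in 8 of 39 members (20.5%) and 15.2% of those genes. A match in these letters is a description of the window and not a measured binding site.

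The comparison of the tissues gave the clearest differences. Normalized over all 14 arrays with each diet weighted equally, 28 of 36 members passed limma's test (adjusted p under 0.05), 4 higher and 24 lower in brain. Over all genes tested 82.8% passed, 38.2% higher and 44.6% lower in brain, so the share of members that passed lay near the background and their direction leaned to muscle. Of the 36 members 29 had an unadjusted p under 0.05 (83.6% of all genes) and 10 a difference above 0 (46.6%). The median difference (brain minus muscle) was -1.11 on the log2 scale over the members, beside -0.10 over all genes. With 4 other scalings of the arrays 25 to 27 members were lower in brain and 4 or 5 higher. Brain and muscle arrays did not overlap for 3 members higher in brain and 22 lower, shares of all genes being 30.5% and 35.3%. The sources do not give the chip of each array, so tissue and chip cannot be told apart.

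**Figure D1:**
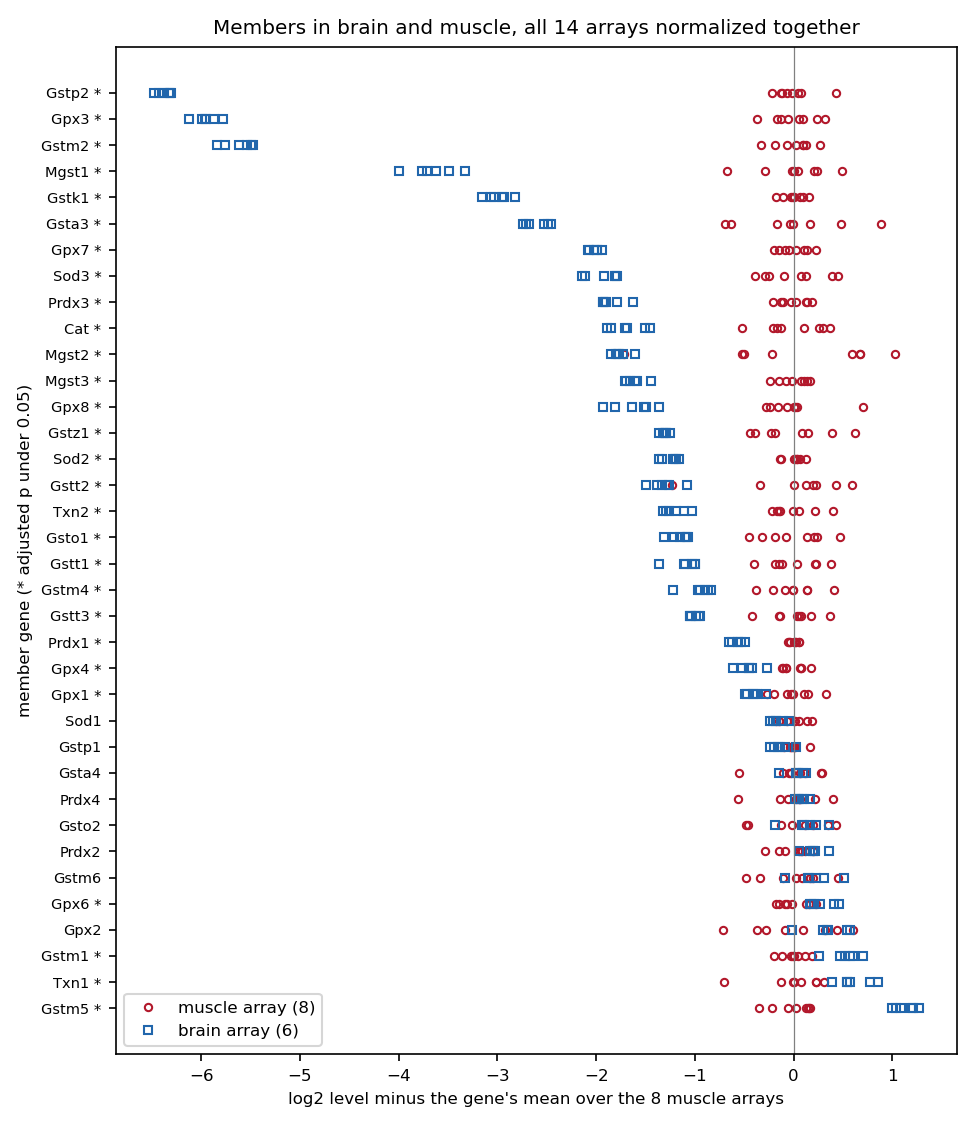
Level of each of 36 members on 8 muscle arrays (circles) and 6 brain arrays (squares), as the log2 level minus that gene's mean over the muscle arrays; a star marks an adjusted p under 0.05 in limma. Gstp2, Gpx3 and Gstm2 lie more than 5 units below their muscle mean on all brain arrays, and Gstm5 is the member farthest above it.

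Among the transferases the pi class split by gene. Gstp2, a pi-class enzyme whose gene neighbours Gstp1 on chromosome 19, had a median level of 11.32 in muscle (lowest 11.15, highest 11.80), and on brain arrays it lay between 4.89 and 5.06 and was below background on all 6. It was at least 73.6-fold lower in brain (fitted log2 difference -6.39 ± 0.09 (SE), adjusted p = 1.19e-14 in limma). Gstp1, the pi-class enzyme that metabolizes many drugs, did not pass the test. Its level was 12.01 ± 0.08 (SD, n = 8) in muscle and 11.87 ± 0.09 (SD, n = 6) in brain, a difference of -0.14 (95% confidence interval -0.29 to 0.00, adjusted p = 0.0640 in limma), and its second probe gave 0.05 ± 0.11 (SE). These genes are close paralogs, and how far either probe binds the other transcript was not tested.

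The mu class ran in both directions. Gstm2 had a median level of 12.92 in muscle (12.52 to 13.12) and 7.28 in brain (7.01 to 7.38), a difference of -5.61 ± 0.09 (SE), or 48.8-fold (adjusted p = 2.60e-14 in limma), and its other probes gave -5.58 and -4.95. Gstm5, known from testis and brain, went the other way with a median of 11.08 in muscle (10.66 to 11.17) and 12.15 in brain (12.01 to 12.27), a difference of 1.14 ± 0.09 (SE, adjusted p = 1.52e-07 in limma). Gstm1 was also higher in brain by 0.53 ± 0.08 (SE, adjusted p = 3.36e-05 in limma), a difference that fell to 0.17 with adjusted p = 0.0557 when arrays were scaled to a common median. The dimmer second Gstm1 probe did not pass (0.21 ± 0.14 (SE), adjusted p = 0.174 in limma over all probes). Gstm4 was lower in brain with a difference of -0.99 ± 0.08 (SE). Gstm6 did not pass (0.23 ± 0.13, SE), although its dimmer probe, which failed the filter in muscle, did (0.89 ± 0.10, SE).

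**Figure D2:**
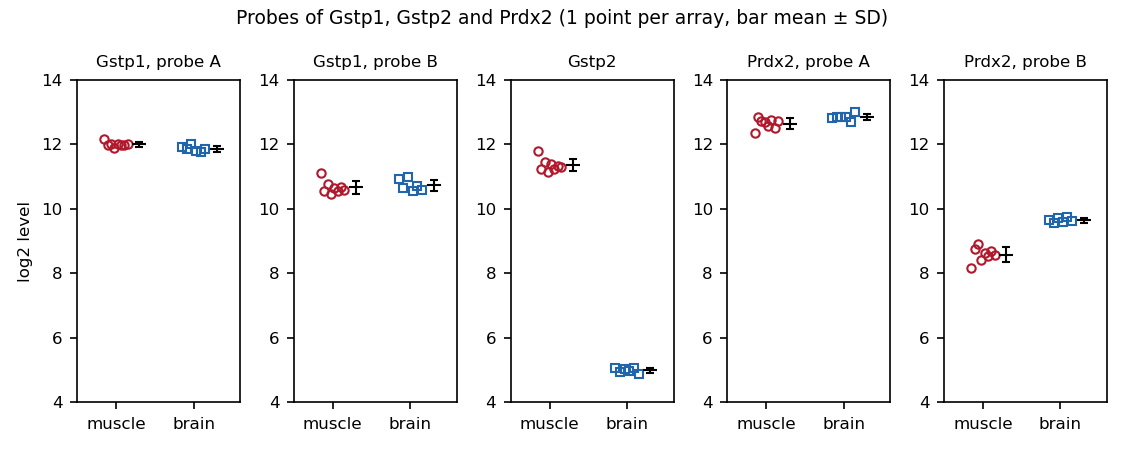
Log2 level of single probes on each of 8 muscle arrays (circles) and 6 brain arrays (squares), with mean ± SD; panels are separate probes and levels are not comparable between panels. The Gstp1 probes overlap between tissues, Gstp2 falls from 11.15 to 11.80 in muscle to 4.89 to 5.06 in brain, and the Prdx2 probes differ in how far brain exceeds muscle.

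Most other transferases were lower in brain. Gstk1, the mitochondrial and peroxisomal kappa-class enzyme, had a median level of 11.96 in muscle (11.78 to 12.12) and 8.97 in brain (8.81 to 9.14), a difference of -2.98 ± 0.07 (SE, adjusted p = 6.58e-13 in limma). Gsta3, which in mice conjugates aflatoxin epoxide, had medians of 9.06 (8.39 to 9.97) and 6.47 (6.34 to 6.63), a difference of -2.57 ± 0.15 (SE, adjusted p = 4.57e-09 in limma). Neither gene's arrays overlapped between the tissues. Gstt1, Gstt2, Gstt3, Gstz1 and Gsto1 differed by -0.99 to -1.27, and only Gstt2 among them overlapped, through muscle C replicate 1. Gsta4, which removes the lipid peroxidation product hydroxynonenal, did not pass (0.04, 95% confidence interval -0.22 to 0.31, adjusted p = 0.736 in limma). Gsto2 did not pass either, but its probe was above background on 5 of 6 brain arrays and on no muscle array.

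All 3 microsomal transferases were lower in brain. Mgst1, a membrane enzyme of the endoplasmic reticulum and outer mitochondrial membrane, had a median level of 10.90 in muscle (10.20 to 11.37) and 7.21 in brain (6.88 to 7.55), a difference of -3.62 ± 0.15 (SE, adjusted p = 1.55e-10 in limma), with -3.02 by its other probe. Mgst3 differed by -1.62 ± 0.08 (SE, adjusted p = 1.08e-09 in limma). Mgst2, which can also make leukotriene C4, was below background on all 6 brain arrays and at least 3.03-fold lower there (fitted -1.63 ± 0.26 (SE), adjusted p = 7.71e-05 in limma). It too overlapped between tissues through muscle C replicate 1, where it was below background at 5.05.

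Of the 7 glutathione peroxidases tested 5 were lower in brain. Gpx3, the secreted peroxidase of plasma, had a median level of 12.52 in muscle (12.16 to 12.85) and 6.56 in brain (6.40 to 6.75), a difference of -5.94 ± 0.08 (SE), or 61.3-fold (adjusted p = 8.95e-15 in limma). Gpx7 and Gpx8, peroxidases of the endoplasmic reticulum, differed by -2.03 ± 0.07 (SE) and -1.62 ± 0.12 (SE), and all 3 Gpx8 probes lay between -1.47 and -1.69. The abundant cytosolic enzyme Gpx1 and the phospholipid peroxidase Gpx4, which protects membranes, differed far less, by -0.39 ± 0.10 (SE, adjusted p = 0.00227 in limma) and -0.45 ± 0.07 (SE, adjusted p = 5.14e-05 in limma). With arrays scaled to a common median these were -0.99 and -0.79, and on control-diet arrays alone Gpx1 did not pass (-0.32, adjusted p = 0.0986 in limma). A dim second Gpx4 probe, which failed the filter in muscle, ran the other way (0.63 ± 0.13, SE). Gpx6 passed as higher in brain (0.29 ± 0.09, SE), but it was above background on only 2 of 6 brain arrays and 0 muscle arrays, and at a common median its difference was -0.01.

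The mitochondrial enzymes among the peroxiredoxins, dismutases and thioredoxins were all lower in brain. Prdx3, the mitochondrial peroxiredoxin, had a median level of 11.86 in muscle (11.65 to 12.05) and 9.96 in brain (9.93 to 10.24), a difference of -1.84 ± 0.07 (SE, adjusted p = 1.17e-10 in limma). Sod2, the mitochondrial manganese dismutase, differed by -1.24 ± 0.07 (SE, adjusted p = 3.56e-09 in limma) and the mitochondrial thioredoxin Txn2 by -1.21 ± 0.10 (SE, adjusted p = 2.11e-07 in limma). These 3 mitochondrial enzymes were lower on every brain array than on any muscle array. The cytosolic copper-zinc dismutase Sod1 did not pass (-0.15, 95% confidence interval -0.32 to 0.01, adjusted p = 0.0826 in limma), and at a common median it was -0.80 with adjusted p = 3.42e-07. Catalase (Cat) differed by -1.64 ± 0.09 (SE, adjusted p = 3.85e-09 in limma) and Sod3, the extracellular dismutase, by -1.92 ± 0.14 (SE, adjusted p = 4.40e-08 in limma), which was -0.91 without background correction.

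Cytosolic Prdx2 could not be placed with certainty. Its brightest probe was 12.71 in muscle at the median (12.36 to 12.85) and 12.85 in brain (lowest 12.70), a difference of 0.20 ± 0.09 (SE, adjusted p = 0.0578 in limma). Its other probes were higher in brain by 1.07 ± 0.11 (SE) and 1.37 ± 0.10 (SE), and at a common median the first probe turned to -0.49 with adjusted p = 0.000263. Prdx1, cytosolic as well, was lower in brain by its bright probe (-0.57 ± 0.06, SE). It was higher by a dim one that failed the filter in muscle (0.29 ± 0.09 (SE), adjusted p = 0.00751 in limma over all probes). Prdx4 of the endoplasmic reticulum did not pass (0.11 ± 0.10, SE). Thioredoxin Txn1 was higher in brain by 0.61 ± 0.14 (SE, adjusted p = 0.00171 in limma). Its dimmer second probe, which failed the filter on dim probes in brain, gave -0.48 ± 0.10 (SE).

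Genes that supply these enzymes were divided in the same comparison. The list held 41 genes of glutathione synthesis, breakdown and reduction, the thioredoxin and glutaredoxin systems and their regulators. Of these 34 were tested, and 8 were higher and 20 lower in brain, beside 38.2% and 44.6% of all genes tested. The higher ones included Slc7a11, the cystine importer (3.53 ± 0.09, SE), Ggt7, a member of the gamma-glutamyltransferase family (4.48 ± 0.15, SE), and Srxn1, which restores oxidized peroxiredoxins (1.33 ± 0.08, SE). The lower ones included Txnip, the inhibitor of thioredoxin (-4.63 ± 0.18, SE), Chac1, which degrades glutathione (-3.78 ± 0.18, SE), and Nfe2l2, which encodes Nrf2 (-1.68 ± 0.11, SE). For glutathione synthesis itself, Gclc (-0.34) and Gclm (-0.66), the subunits of the first enzyme, were lower in brain and Gss did not pass (0.22 ± 0.16, SE). Gsr, Ggt1, G6pdx and Pgd had no matching symbol and were not analysed here.

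The diets were compared next within each tissue, to ask whether CR or βL changed these enzymes. In muscle, 0 of 34 members passed limma's test for CR against C, where 0% of all 8898 genes passed. For βL against C and for βL against CR 0 members passed as well, with 0.0225% of all genes passing in each. At an unadjusted p under 0.05 the members were 2, 5 and 3, beside 5.12%, 10.4% and 9.62% of all genes. The smallest adjusted p of a member was 0.932, 0.347 and 0.393 in limma. Fitted differences from C were above 0 for 24 of 34 members on CR and 25 on βL (49.4% and 46.1% of all genes), and for 18 between βL and CR (47.4%), with medians of 0.10 and 0.12 for the first and second on the log2 scale beside -0.00 and -0.02 over all genes. Both comparisons share the same C arrays. Without C replicate 1 the members above 0 were 20 on CR and 22 on βL, and when single arrays were left out the CR median ran from 0.03 to 0.22 and the βL median from 0.03 to 0.27.

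Catalase had the smallest p of the members for βL against C in muscle. Its level was 8.11 and 8.46 on the C arrays, 8.82, 8.55 and 8.50 on CR and 9.11, 8.98 and 9.02 on βL. All βL arrays were above all others and all CR arrays above both C arrays. The difference was 0.75 ± 0.17 (SE), or 1.68-fold, for βL against C (adjusted p = 0.347 in limma), 0.34 ± 0.17 (SE) for CR against C (adjusted p = 0.938) and 0.41 ± 0.15 (SE) for βL against CR (adjusted p = 0.431). Leaving out 1 array at a time moved the first between 0.58, without C replicate 1, and 0.92, and without C replicate 1 the second was 0.16. Red cell markers, among them haemoglobin, were also highest on βL arrays. They summed to 34226 to 50146 there with 3 of 3 markers above background, against 14592 to 18198 on C and 16092 to 21429 on CR with 2 of 3 above background (Slc4a1 was not), while slow-twitch markers summed to 69900 to 153798 on βL, 30512 to 115147 on CR and 2420 and 119983 on C. Macrophage markers summed to 2380 to 6200 on βL, 1262 to 2489 on C and 1127 to 2084 on CR, with 4 or 5 of 5 above background. The part of these markers, and of the adipocyte markers given next, in the catalase values was not tested.

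**Figure D3:**
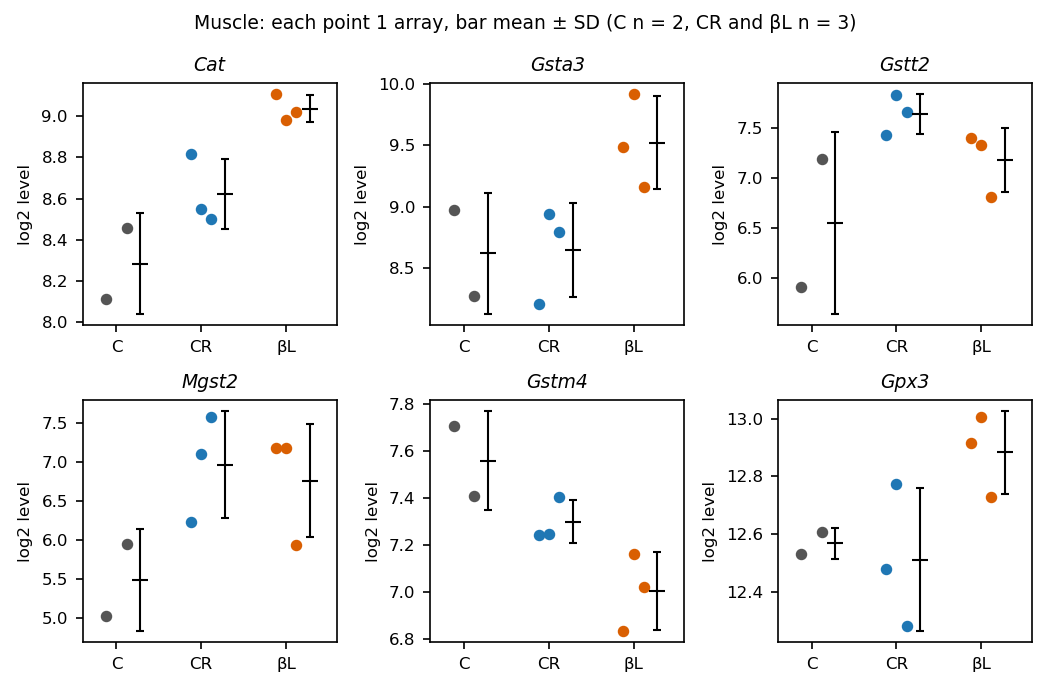
Log2 level of 6 members in muscle by diet, each point 1 array and each bar the mean ± SD (C n = 2, CR and βL n = 3); every panel has its own axis. Catalase is 8.11 to 8.46 on C and 8.98 to 9.11 on βL, and in Gstt2 and Mgst2 the C arrays lie far apart.

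Gsta3 was higher on βL than on either other diet by the fitted values. It read 8.97 and 8.27 on C, 8.21, 8.94 and 8.79 on CR and 9.48, 9.92 and 9.16 on βL, so the βL arrays did not overlap the others. The difference was 0.90 ± 0.31 (SE) against C (adjusted p = 0.384 in limma) and 0.87 ± 0.27 (SE) against CR (adjusted p = 0.393), and without single arrays the first ran from 0.55, without C replicate 2, to 1.25, without C replicate 1. White adipocyte markers summed to 5201 to 11933 on βL, 1513 to 5704 on C and 3720 to 7802 on CR, with 4 or 5 of 7 above background on each muscle array (Fabp4 and Retn on none), and their part was not tested. Gpx3 had levels of 12.53 and 12.61 on C, 12.48, 12.77 and 12.28 on CR and 12.91, 13.01 and 12.73 on βL, with overlap between CR and βL (0.37 ± 0.16 (SE), adjusted p = 0.513 in limma).

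Gstm4 went the other way. Its level was 7.71 and 7.41 on C, 7.24, 7.25 and 7.41 on CR and 6.83, 7.16 and 7.02 on βL. All 3 βL arrays were below all others, with a difference from C of -0.55 ± 0.16 (SE, adjusted p = 0.368 in limma) that was -0.40 without C replicate 1 and -0.29 without background correction, and from CR of -0.29 ± 0.15 (SE, adjusted p = 0.564).

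For CR against C in muscle the smallest p belonged to theta-class and microsomal enzymes. Gstt2 was 5.91 and 7.20 on C, 7.43, 7.83 and 7.66 on CR and 7.40, 7.33 and 6.81 on βL. C replicate 1 was below the other 7 arrays. The difference of 1.09 ± 0.35 (SE, adjusted p = 0.932 in limma) was 0.45 without C replicate 1, 1.74 without C replicate 2 and 0.51 without background correction. Mgst2 was 5.02 (below background) and 5.95 on C, 6.23, 7.09 and 7.57 on CR and 7.17, 7.17 and 5.93 on βL, a CR difference of 1.48 ± 0.49 (SE, adjusted p = 0.932 in limma) that was 1.01 without C replicate 1, 1.95 without C replicate 2 and 0.57 without background correction. Gstt1 was 7.65 and 7.93 on C and 7.96, 8.50 and 8.32 on CR, a difference of 0.47 ± 0.21 (SE, adjusted p = 0.938 in limma) that was 0.33 without C replicate 1 and 0.31 without background correction.

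Among the peroxiredoxins and dismutases of muscle Prdx4 had the largest fitted differences. It was 9.61 and 10.14 on C, 10.27, 10.06 and 10.44 on CR and 10.64, 10.24 and 10.28 on βL. All βL arrays lay above both C arrays, by 0.51 ± 0.21 (SE, adjusted p = 0.460 in limma), and CR overlapped C (0.38 ± 0.21 (SE), adjusted p = 0.938); without C replicate 1 these were 0.24 and 0.12. Sod3 differed from C by 0.24 on βL (95% confidence interval -0.43 to 0.90) and 0.17 on CR (-0.50 to 0.83), and by -0.05 and -0.12 without C replicate 1. Prdx3 was 11.85 and 11.82 on C and 12.17, 12.10 and 12.11 on CR, a difference of 0.29 ± 0.14 (SE, adjusted p = 0.938 in limma), and 11.99, 11.94 and 11.73 on βL. Of these diets CR lay above C without overlap, by 0.30 without C replicate 1. Sod1 differed from C by 0.11 on CR (95% confidence interval -0.26 to 0.48) and 0.07 on βL (-0.30 to 0.45), and Sod2 by 0.09 (-0.23 to 0.42) and -0.01 (-0.33 to 0.32). Gpx1 differed by 0.17 (-0.27 to 0.62) and 0.12 (-0.32 to 0.57), and Gpx4 by -0.07 (-0.38 to 0.24) and 0.13 (-0.18 to 0.45). Prdx2 differed by 0.07 on each diet (-0.36 to 0.49) and Txn1 by -0.21 (-0.82 to 0.39) and 0.12 (-0.48 to 0.73). None of the intervals given for these 6 enzymes reached 1 unit, a 2-fold difference. Without C replicate 1 the CR differences of the 8 best-known enzymes, catalase and Prdx3 included, ran from -0.24 to 0.30 and the βL ones from -0.19 to 0.58.

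Counted by overlap of arrays in muscle, 7 of 34 members lay above both C arrays on CR and 1 below, a larger and a smaller share than the 9.25% and 9.78% of all genes. On βL 6 lay above and 2 below (11% and 12.5%), and for βL against CR 4 above and 4 below (7.5% and 8.29%). By family, all 4 peroxiredoxins, all 3 dismutases and catalase had fitted CR differences above 0, as did 12 of 15 transferases and 2 of 3 microsomal transferases, whereas 4 of 6 glutathione peroxidases and both thioredoxins were below 0. On βL 11 of 15 transferases, all 3 microsomal transferases, 4 of 6 glutathione peroxidases and 3 of 4 peroxiredoxins were above 0. None of these passed the test. Without C replicate 1 the members below 0 on both diets included Sod2, Sod3, Prdx2 and the transferases Gsta4 and Gsto1, and Gstm5 and Gstt3 turned below 0 on CR.

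**Figure D4:**
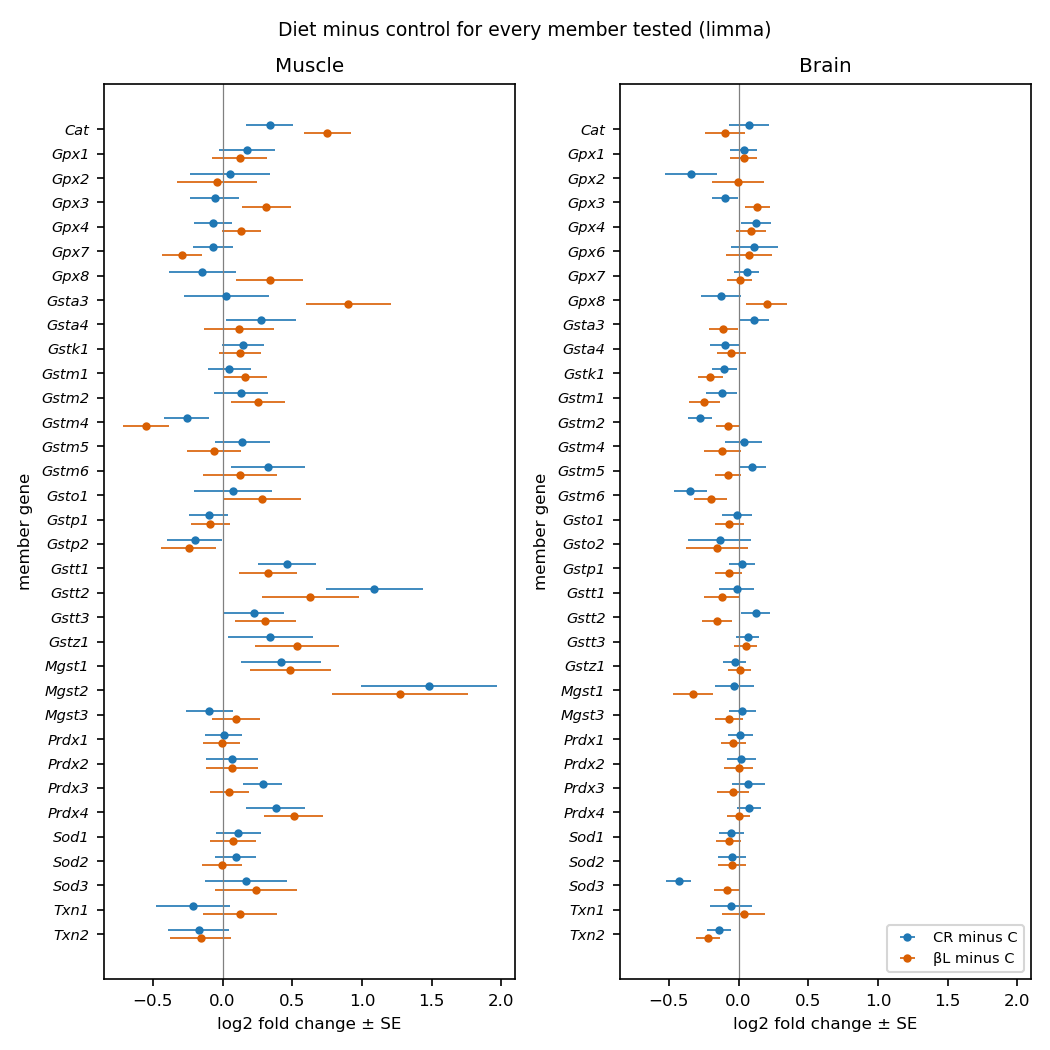
Fitted log2 difference from C for each member tested in muscle and in brain, CR in blue and βL in orange, bars ± SE from limma. No member passed the test, the muscle differences spread from -0.55 to 1.48 and the brain ones from -0.43 to 0.20.

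In brain, 0 of 34 members passed for CR against C, βL against C or βL against CR, where 0.231%, 0.331% and 0.281% of 9956 genes did. At an unadjusted p under 0.05 the members were 3, 1 and 3 (8.15%, 8.73% and 9.36% of all genes), and the smallest adjusted p was 0.301, 0.544 and 0.373 in limma. The brain members were tighter than those of muscle, with a median SE of 0.10 against 0.20. The median difference was -0.01 for CR and -0.07 for βL against C, beside 0.00 and -0.00 over all genes. Of 34 members 16 were above 0 on CR (50.5% of all genes) and 10 each for βL against C (49.5%) and against CR (48.2%). Against C on βL 13 of 15 cytosolic and mitochondrial transferases were below 0, while 6 of 7 glutathione peroxidases were above 0 (median 0.08).

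Sod3, the extracellular dismutase, had the smallest p in brain. It was 5.94 and 5.97 on C, 5.54 and 5.50 on CR and 5.94 and 5.79 on βL. Both CR arrays lay below the other 4, by -0.43 ± 0.09 (SE) against C (adjusted p = 0.301 in limma), and βL exceeded CR by 0.34 ± 0.09 (SE, adjusted p = 0.373). The level was dim, and without background correction or with other settings the CR difference ran from -0.43 to -0.12, and that between βL and CR from 0.10 to 0.34. Choroid plexus markers, such as Ttr, were lowest on CR too. They summed to 3989 to 4119 on CR (3 of 6 above background, Folr1, Aqp1 and Otx2 not), 16629 to 20199 on C (5 of 6) and 38807 to 41636 on βL (6 of 6), and their part in the Sod3 values was not tested. The hepatocyte list shares Ttr and summed to 3909 to 4031 on CR, 16372 to 19963 on C and 38050 to 40926 on βL. Both sums therefore reflect mainly Ttr. Taken singly, 3 of 6 choroid plexus markers passed limma's test as lower on CR than on C, and 1 had a difference above 0.

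**Figure D5:**
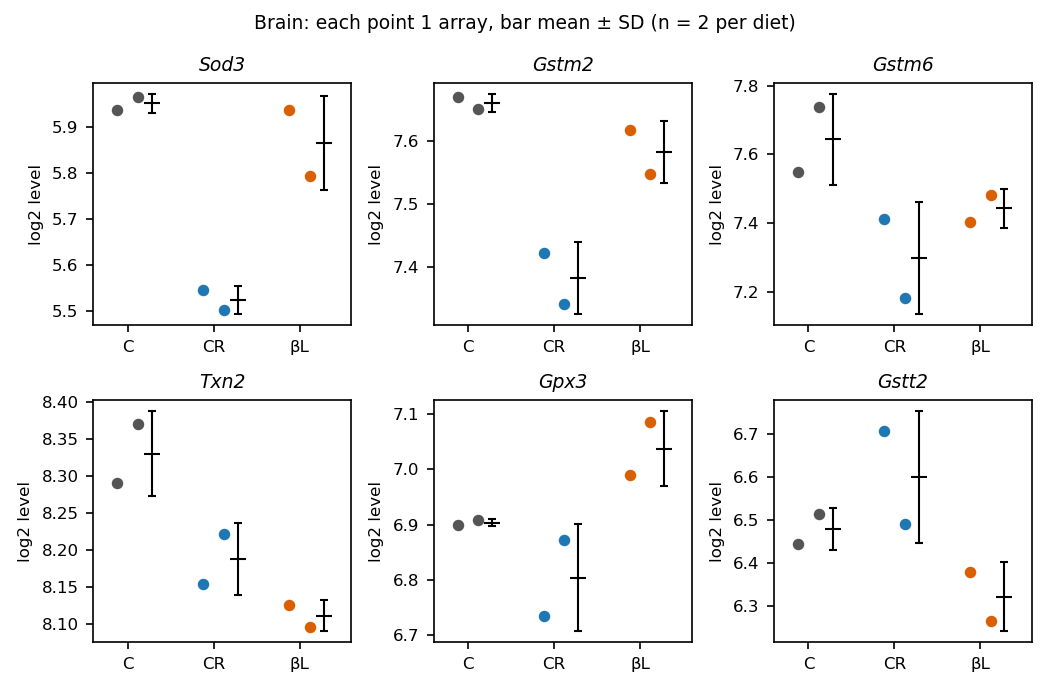
Log2 level of 6 members in brain by diet, each point 1 array and each bar the mean ± SD (n = 2 per diet); every panel has its own axis. Both CR arrays are lowest in Sod3 (5.50 to 5.54) and Gstm2 (7.34 to 7.42), and both βL arrays are lowest in Txn2 and Gstt2.

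The mu-class enzymes Gstm2 and Gstm6 were lower on CR than on C by the fitted values of their brightest probes. Gstm2 was 7.67 and 7.65 on C, 7.42 and 7.34 on CR and 7.62 and 7.55 on βL, a CR difference of -0.28 ± 0.08 (SE, adjusted p = 0.479 in limma). Gstm6 was 7.55 and 7.74 on C, 7.41 and 7.18 on CR and 7.40 and 7.48 on βL (-0.35 ± 0.12 (SE), adjusted p = 0.526 in limma). By the brightest probe of both genes the CR arrays lay below both C arrays without overlap, and neither passed. The other Gstm2 probes gave smaller CR differences of -0.09 ± 0.11 (SE) and -0.11 ± 0.16 (SE). The dimmer Gstm6 probe ran the other way (0.06 ± 0.16, SE).

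On βL the smallest p in brain belonged to Txn2, Mgst1 and Gstk1, all below C. Txn2 was 8.29 and 8.37 on C, 8.15 and 8.22 on CR and 8.13 and 8.10 on βL (-0.22 ± 0.08 (SE), adjusted p = 0.544 in limma). Mgst1 was 7.82 and 7.48 on C, 7.68 and 7.56 on CR and 7.43 and 7.21 on βL (-0.33 ± 0.14 (SE), adjusted p = 0.592), a difference that ran from -0.50 without C replicate 2 to -0.15 without C replicate 1. Gstk1 was 9.25 and 9.16, 9.14 and 9.07, and 9.04 and 8.97 on the 3 diets (-0.20 ± 0.09 (SE), adjusted p = 0.592). Each had both βL arrays below both C arrays. Gpx3 was 6.90 and 6.91 on C, 6.74 and 6.87 on CR and 6.99 and 7.09 on βL, which put βL above CR by 0.23 ± 0.09 (SE, adjusted p = 0.507 in limma), and Gstt2 had a fitted difference between βL and CR of -0.28 ± 0.11 (SE, adjusted p = 0.501 in limma) that was -0.17 without CR replicate 1. In the deposited normalized values the Gpx3 and Gstt2 differences were 0.12 and -0.11.

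Of the best-known enzymes in brain, only Gpx4 on βL had both arrays on the same side of both C arrays. Cat differed from C by 0.07 on CR (95% confidence interval -0.27 to 0.42) and -0.10 on βL (-0.45 to 0.25), with levels of 7.66 and 7.27 on C, 7.62 and 7.46 on CR and 7.30 and 7.43 on βL that overlapped. Gpx1 differed by 0.04 on each (-0.20 to 0.27), Gpx4 by 0.13 (-0.13 to 0.39) and 0.09 (-0.17 to 0.35), and Sod1 by -0.05 (-0.27 to 0.17) and -0.07 (-0.29 to 0.15). Sod2 differed by -0.05 on each (-0.29 to 0.20), Prdx2 by 0.02 (-0.23 to 0.27) and 0.00 (-0.25 to 0.25), Prdx3 by 0.07 (-0.21 to 0.35) and -0.04 (-0.32 to 0.24), and Txn1 by -0.05 (-0.42 to 0.31) and 0.04 (-0.33 to 0.40). None of these intervals reached a 2-fold difference.

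Of the brain members, 2 lay above both C arrays on CR and 8 below (19.1% and 18.6% of all genes), 3 above and 10 below on βL (19.8% and 20.9%), and 4 above and 8 below for βL against CR (18.9% and 21.3%). Other markers also differed between the diets in brain. Red cell markers summed to 14685 to 17150 on βL, 6776 to 6852 on C and 4830 to 5200 on CR. Neutrophil markers summed to 729 to 821 on C and 98 to 112 on both other diets, where 1 or 2 of 5 were above background. Macrophage and microglia markers summed to 2980 to 3193 on C, 2109 to 2265 on CR and 1910 to 2027 on βL. Their part in the members' values was not tested.

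The diet responses of the tissues were set against each other directly, as an interaction over all 14 arrays. For CR 0 of 36 members passed (0.00924% of all genes), and for βL 0 of 36 (0.0369%). At an unadjusted p under 0.05 the members were 1 and 3 (4.77% and 7.73% of all genes). The smallest p for CR belonged to Mgst2 (brain minus muscle -1.63 ± 0.64 (SE), adjusted p = 0.995 in limma) and Gstt2 (-0.91 ± 0.43 (SE), adjusted p = 0.995), which without muscle C replicate 1 were -1.02 and -0.29. Mgst2 was below background on all 6 brain arrays, so its interaction on either diet restates the muscle difference and cannot compare the tissues. For βL it belonged to Cat (-0.79 ± 0.23 (SE), adjusted p = 0.381) and Gsta3 (-0.94 ± 0.36 (SE), adjusted p = 0.552), which were -0.62 and -1.24 without that array, while the βL difference farthest from 0 was that of Mgst2 (-1.28 ± 0.64 (SE), adjusted p = 0.665). Of the 36 members 12 had a CR response higher in brain than in muscle (50.2% of all genes) and 4 a βL response (51.8%), the latter with a median of -0.16 beside 0.01 over all genes, and without muscle C replicate 1 the counts were 14 and 12. Leaving out single arrays moved the βL median between -0.32 and -0.08.

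The supporting genes passed in no diet comparison either, 30 of 41 being tested in muscle and 32 in brain. In muscle Idh1, a source of cytosolic NADPH, was higher by 0.98 ± 0.30 (SE) on βL (adjusted p = 0.375 in limma) and by 0.66 ± 0.30 (SE) on CR (adjusted p = 0.938) as fitted, and Bach1, a repressor at antioxidant response elements, differed by -0.78 ± 0.24 (SE) on βL (adjusted p = 0.381). In brain Txnip differed by -0.38 ± 0.10 (SE) on βL (adjusted p = 0.379 in limma) and -0.29 ± 0.10 (SE) on CR (adjusted p = 0.547), Sesn3 by 0.43 ± 0.12 (SE) on CR (adjusted p = 0.453) and Sesn2 by 0.52 ± 0.20 (SE) on βL (adjusted p = 0.539). Sestrins are stress-induced regulators of growth and redox signalling.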

How the data were processed

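The authors measured muscle RNA on 8 and brain RNA on 6 Illumina bead arrays (Sentrix Mouse-8 v2). The deposited intensity per probe and array was read with BeadStudio 3.0 and not normalized, and the authors deposited a detection p-value against negative control beads beside it. Their second table holds intensities quantile-normalized over all 14 arrays and served as an alternative. Probes were named from the platform annotation, where 23978 of 25697 carried 1 gene symbol, 0 several and 1719 none. All 42 members matched a gene identifier.

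Background was modelled by normexp from the detection p-values (offset 16), followed by quantile normalization within each tissue, or over all 14 arrays to compare tissues, and log2. A probe was kept if it was above background (detection p under 0.05) on 2 or more arrays, and the brightest probe stood for a gene (14 members had several). The 3 diets of a tissue, or all 6 groups, were fitted with limma 3.58.1 (R 4.3.3), lmFit and eBayes, with Benjamini-Hochberg adjustment over all genes. The steps were tested on simulated data. A gene not above background in a group has only a bound, taken per array from the lowest signal among probes above background. Marker levels are summed on the linear scale. Promoters of RefSeq were aligned with Biopython 1.88.

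The families and lists were chosen with earlier results of these data known, and their genes were then taken by symbol alone. Named are the 3 members with the smallest p per diet contrast, up to 8 per direction between tissues, 2 per interaction, and Gpx1, Gpx4, Cat, Sod1, Sod2, Prdx2, Prdx3 and Txn1; others were named after their values were seen. The number of arrays limits the precision.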

Additional observations from a re-analysis of the deposited data

How the results depend on the processing

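No diet or interaction comparison called a member under any alternative run, and their medians moved by less than the spread, except that the βL interaction median ran from -0.32 (without muscle C replicate 2) to -0.0823 when single arrays were left out. Between tissues 26 to 32 members passed, 27 to 31 with single arrays left out. Their median of -1.11 was -0.67 without background correction, -0.94 with an offset of 50, -0.72 in the deposited normalized values, -0.78 without the filter on dim probes and -0.93 on control-diet arrays alone, where Gpx1 no longer passed (adjusted p = 0.0986 in limma). Each of these settings changes how dim values are treated or how many arrays enter, and the part of either in the smaller median was not tested. At a common median Gpx6 turned to -0.0135 and Prdx2 to -0.49, and the cause was not tested.

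The replicate numbers of the labels did not pair the arrays: deviations of same-numbered arrays correlated at -0.21 to 0.19 in muscle (1 of 7 pairs over 0.1) and -0.11 to 0.18 in brain (2 of 6). With the replicate number as a block 0 members passed in every diet comparison and 29 between tissues. The block turned the muscle βL differences of Sod2 to 0.000375 and Txn1 to -0.0236, neither of which passed in any setting. A block for the chip was not run, because the headers give no chip.

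Near-zero differences of single enzymes changed sign when 1 array was left out, and none of them passed. On CR in muscle Sod2 ran from -0.00598 to 0.190, Prdx2 from -0.194 to 0.330, Gpx4 from -0.168 to 0.0307 and Txn1 from -0.466 to 0.0599. On βL in muscle Sod1 ran from -0.0123 to 0.176, Prdx2 from -0.191 to 0.332, Sod2 from -0.104 to 0.0916, Gpx1 from -0.0415 to 0.271 and Prdx3 from -0.00317 to 0.125. On CR in brain Gpx1 ran from -0.00209 to 0.0687, Sod1 from -0.111 to 0.00522, Txn1 from -0.265 to 0.156, Cat from -0.121 to 0.270, Sod2 from -0.113 to 0.0200 and Prdx3 from -0.0642 to 0.206. On βL in brain Gpx1 ran from -0.0585 to 0.134, Cat from -0.292 to 0.0988, Prdx2 from -0.121 to 0.122, Prdx3 from -0.111 to 0.0277, Txn1 from -0.174 to 0.246 and Sod2 from -0.139 to 0.0442.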
